A study of Mus musculus with 8 samples.

Results

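The genes described here encode 10 transcription factors that direct the making and maturation of granulocytes: the C/EBP proteins Cebpa, Cebpb, Cebpd, Cebpe and Cebpg, PU.1 (encoded by Spi1), Gfi1, Runx1 and the Krüppel-like factors Klf2 and Klf5. They were chosen by name. All 10 symbols were found among the 19836 symbols that could be attached to the 24625 rows of the array table, each on 1 row. RNA came from neutrophils of wild type mice, aged 6 to 12 weeks per the labels, that had received phosphate-buffered saline (PBS, 4 arrays) or Streptococcus pneumoniae (SP, 4 arrays), a bacterium that causes pneumonia. Both groups were instilled intratracheally with 2.3 µl of fluid per g, directed to the left lung. Lungs were taken after 24 h, and cells carrying Ly6G, a surface protein of mouse neutrophils, were pulled out with antibody-coated magnetic beads. The labels do not say whether a sample came from 1 mouse, although the authors describe each as coming from a mouse. The p-values measure only the spread between these samples. Values are log2 expression from 1 Affymetrix array per sample, and the level of 1 gene cannot be set against the level of another.

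Granulocytes arise in the bone marrow from progenitors in which PU.1, Runx1 and C/EBPα open the myeloid program. C/EBPα commits cells to the granulocyte line, Gfi1 is a repressor that favours neutrophils over monocytes, and C/EBPε drives late maturation and the genes of secondary granules. C/EBPβ takes over when infection calls for rapid production of granulocytes and also acts on cytokine genes in mature cells. C/EBPδ is an acute-phase relative, C/EBPγ a short family member without an activating domain of its own, Klf2 holds leukocytes and endothelium in a quiet state, and Klf5 acts in both myeloid and epithelial cells.

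The sequences just upstream of 4 of these genes are shown so that the motifs of the C/EBP, PU.1, Gfi1 and RUNX proteins can be read beside the expression values: Cebpb, Gfi1 and Runx1 as factors called higher in SP, and Cebpa as one that was not called. They were taken from RefSeq on the mouse assembly GRCm38.p6, which held windows for 6 of the 10 genes (8 windows in all, Gfi1 and Runx1 with 2 each). Each runs 5′ to 3′ on the strand of its gene and ends 1 base before the annotated start of transcription. Capitals mark matches on either strand of the C/EBP motif TTNNGNAA, the short cAMP response element TGACG, the PU.1 core GAGGAA, the GFI1 core AAATCA and the RUNX motif TGTGGT.
Cebpb: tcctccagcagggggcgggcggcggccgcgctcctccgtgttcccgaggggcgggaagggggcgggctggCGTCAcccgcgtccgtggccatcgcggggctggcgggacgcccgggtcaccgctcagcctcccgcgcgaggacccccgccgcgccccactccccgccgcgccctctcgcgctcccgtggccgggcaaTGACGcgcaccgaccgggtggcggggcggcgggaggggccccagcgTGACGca
Gfi1: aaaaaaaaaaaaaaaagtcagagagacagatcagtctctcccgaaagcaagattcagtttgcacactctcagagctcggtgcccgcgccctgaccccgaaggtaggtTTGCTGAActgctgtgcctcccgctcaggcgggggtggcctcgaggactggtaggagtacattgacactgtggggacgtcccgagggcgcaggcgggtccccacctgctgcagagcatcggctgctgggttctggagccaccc
Runx1, proximal: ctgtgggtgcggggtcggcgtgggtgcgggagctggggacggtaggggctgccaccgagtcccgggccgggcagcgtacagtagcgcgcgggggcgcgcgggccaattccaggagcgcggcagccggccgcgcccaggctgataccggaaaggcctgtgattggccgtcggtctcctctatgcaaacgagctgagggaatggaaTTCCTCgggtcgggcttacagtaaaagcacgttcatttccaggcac
Cebpa: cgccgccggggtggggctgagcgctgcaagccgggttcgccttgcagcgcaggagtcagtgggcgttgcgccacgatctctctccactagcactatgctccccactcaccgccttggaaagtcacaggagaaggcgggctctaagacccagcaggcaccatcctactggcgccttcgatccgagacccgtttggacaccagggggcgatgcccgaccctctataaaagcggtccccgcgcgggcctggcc
The Cebpb window, chr2:167688665-167688914 on the plus strand, held 3 copies of TGACG, the letters that CREB and ATF proteins bind, at 180, 53 and 7 bases before the start. At least 1 copy was found in 17.8% of all 32851 windows of 250 bases, and 3 or more in 0.688%. The window was 81.6% G and C, against a median of 52.4% over all windows. The Gfi1 window, chr5:107725806-107726055 on the minus strand, held 1 C/EBP match at 143 bases before the start, as 36.8% of all windows did at least once. The Runx1 window of its proximal promoter, chr16:92697330-92697579 on the minus strand, held 1 PU.1 core at 46 bases before the start, found in 23.3% of windows. The Cebpa window, chr7:35119043-35119292 on the plus strand, held none of these 5 motifs. The GFI1 core stood in 12.4% and the RUNX motif in 14% of windows, and in none of the 8. A further search for the CACCC box of Krüppel-like factors (52% of windows) found 2 matches in each of the Cebpb, Gfi1 and proximal Runx1 windows and 1 in that of Cebpa, and the one 177 bases before the Cebpb start shares letters with the TGACG at 180. The STAT motif TTCNNNGAA (7.02% of windows) and the AP-1 motif TGANTCA (6.75%) were found in none of the 4. Windows not shown belong to Cebpg and Klf2, both also called higher in SP, and include a second one each of Gfi1 and Runx1. Those of Cebpg, Gfi1 and Runx1 held no match of any motif searched. The Klf2 window held 1 TGACG at 241 and 1 CACCC at 19 bases before the start. Of the 6 genes with a window only Cebpa was not called, so these windows cannot show whether calls and matches go together. A match of letters is a description and not a binding site.

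Of the 10 factors, 6 were higher and 1 was lower in SP at an adjusted p of at most 0.05 (limma, Benjamini-Hochberg over all rows). Over all rows, 21.5% were called higher and 22.6% lower, 44.1% in all, so a call by itself is common in this comparison. Gfi1 and Cebpe, both higher, and Klf5, which was lower, also passed 2-fold, a call made for 17.6% of all rows. In 6 factors (Cebpb, Cebpe, Cebpg, Gfi1, Runx1 and Klf5) the 4 SP values did not overlap the 4 PBS values, as was true of 49% of all rows. Cebpa, Cebpd and Spi1 were not called. The calls of Gfi1, Cebpe and Klf5 held under all alternatives that could be run, that of Runx1 under all but one, whereas those of Cebpb, Cebpg and Klf2 were narrow and their values without single arrays are given with each gene.

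Several arrays were the extreme of their group for most factors. PBS replicate 2 was the lowest PBS array for Cebpb, Cebpe, Cebpg, Spi1 and Klf2 and the highest for Cebpa, Gfi1, Runx1 and Klf5. SP replicate 3 was the highest SP array for Cebpa, Cebpb, Cebpd, Cebpe and Klf2 and the lowest for Cebpg, Spi1 and Runx1. PBS replicate 3 was the highest or lowest PBS array for 8 factors (5 highest, 3 lowest) and SP replicate 2 the extreme SP array for 7 (3 highest, 4 lowest). With PBS replicate 2 and SP replicate 3 left out, 6 of the 10 factors were called (Cebpa, Cebpe, Cebpg, Gfi1, Runx1 and Klf5), against 7 with all arrays. Of all 24625 rows, 10277 were called without these 2 arrays, against 10860 with all arrays. Neutrophil markers were read on all arrays. Among 10 of them, Retnlg, Mmp8 and Mmp9 fell in SP and none rose, with a mean level of 12.48 to 13.01 in PBS and 12.32 to 12.89 in SP. Such markers do not measure how pure a sample was. The authors evaluated purity in the SP samples and gave no value for PBS, and they described Ly6G mRNA as high throughout. Ly6g itself was not analysed here. Array medians were 6.06 to 6.20 in PBS and 5.78 to 5.91 in SP. Centring the arrays on their medians raised the median difference over rows by 0.28, and differences below that size have no settled direction.

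**Figure D1:**
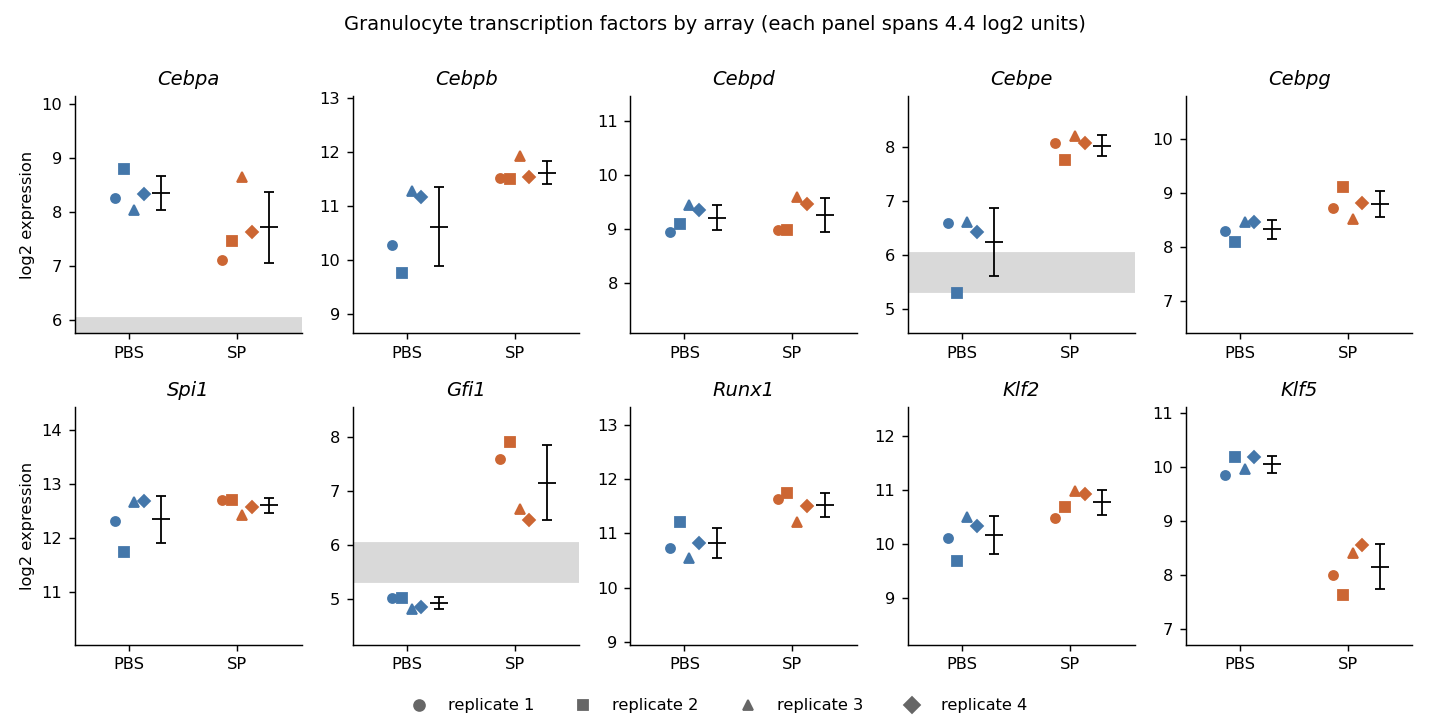
Log2 expression of each of the 10 factors on each array, with 4 PBS arrays (blue) and 4 SP arrays (orange), the marker shape giving the replicate number and the bars the mean ± SD (n = 4); every panel spans the same number of log2 units but starts at its own level. The grey band is the background range, shown where it falls inside a panel: Gfi1 lay below it on all PBS arrays and above it on all SP arrays, Klf5 lay lower on all SP arrays, and Cebpd and Spi1 overlapped between groups.

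Of the 5 C/EBP genes, Cebpb, Cebpe and Cebpg were called higher, and Cebpa and Cebpd were not called. Cebpe (row NM_207131), the factor of late granulocyte maturation, had values of 6.60, 5.30, 6.61 and 6.43 on the 4 PBS arrays and 8.07, 7.76, 8.20 and 8.07 on the 4 SP arrays. The SP values lay close together and all above the PBS values, among which replicate 2 stood low, at the background level of its array (5.31, the 95th percentile of the 1080 rows of olfactory receptors, which neutrophils do not use). The mean rose 3.46-fold, from 6.23 ± 0.63 to 8.03 ± 0.19 (SD, n = 4), a log2 difference of 1.79 with a standard error of 0.28 (adjusted p = 0.00139 by limma). Without PBS replicate 2 the difference was 1.48, and over all alternatives it lay between 1.42 and 2.07.

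Cebpb (NM_001287738), the factor of emergency granulocyte production whose upstream window held 3 copies of TGACG, read 10.28, 9.76, 11.28 and 11.18 in PBS and 11.52, 11.50, 11.94 and 11.54 in SP. The PBS arrays fell into a lower pair (replicates 1 and 2) and a higher pair (replicates 3 and 4), and the highest of them lay just under the SP values. The difference was 0.999 log2 units (standard error 0.33, 95% interval 0.25 to 1.75, adjusted p = 0.0382 by limma), which is marginally short of 2-fold. Its call was lost when PBS replicate 1 (adjusted p = 0.0988), PBS replicate 2 (0.0602) or any 1 of the SP arrays (0.0597 to 0.0822) was left out, with differences of 0.71 to 1.22 over all single omissions and 0.60 without PBS replicate 2 and SP replicate 3 together.

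Cebpg (NM_009884), a partner of the other C/EBP proteins, had 8.30, 8.09, 8.47 and 8.46 in PBS and 8.73, 9.12, 8.52 and 8.82 in SP. The groups did not overlap, but SP replicate 3 was only marginally above the highest PBS array. The 1.38-fold rise (log2 difference 0.47, standard error 0.14, adjusted p = 0.0291 by limma) lost its call without PBS replicate 1 or 2, or SP replicate 1, 2 or 4 (adjusted p of 0.0537 to 0.0701).

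Cebpa (NM_001287514), which commits progenitors to the granulocyte line, was not called. It read 8.26, 8.79, 8.04 and 8.34 in PBS and 7.12, 7.46, 8.65 and 7.63 in SP. The SP arrays of replicates 1, 2 and 4 lay below all PBS arrays, and SP replicate 3 above all PBS arrays but one. The difference was -0.64 (95% interval -1.37 to 0.08, adjusted p = 0.124 by limma), and 1 array decided the call: without SP replicate 3 it was -0.95 (adjusted p = 0.00659), and without that array and PBS replicate 2 it was -0.81 (0.00534). Cebpd (NM_007679), an acute-phase relative, showed no call in any alternative. Its values were 8.95, 9.10, 9.45 and 9.35 in PBS and 8.99, 8.98, 9.59 and 9.46 in SP, interleaved between the groups, with a difference of 0.04 (95% interval -0.36 to 0.45, adjusted p = 0.844), the sign of which turned with single arrays.

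The genomic neighbours Cebpg and Cebpa lie on the same chromosome with 2 predicted genes between them, and their differences had opposite signs.

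Proteins that hold C/EBP factors in check were compared next. Of 4 such genes, 2 rose, 1 fell and 1 was not called, with a median difference of 0.72 against 0.10 over all rows. Ddit3, whose product CHOP pairs with C/EBP proteins and keeps them off their usual sites, rose 3.70-fold from 7.90 ± 0.71 to 9.78 ± 0.40 (adjusted p = 0.00311 by limma). The pseudokinases Trib1 and Trib2 bring C/EBPα to degradation, and they differed in direction. Trib1 rose 2.17-fold (log2 difference 1.12 ± 0.28, SE), whereas Trib2 fell 2.91-fold (-1.54 ± 0.26), and Trib3 differed by 0.33 without a call (adjusted p = 0.147).

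Genes on which C/EBP factors are known to act in inflammation were mostly higher in SP. Of 10 inflammatory targets with a row, 7 rose, all of them at least 2-fold, and none fell. Their median difference was 3.92, or 3.84 with the 3 genes that were at background in PBS set to their lower bounds. Saa3, an acute-phase protein, had 6.69, 7.03, 6.45 and 6.41 in PBS and 12.56, 12.44, 12.93 and 12.93 in SP, a 67.2-fold rise (adjusted p = 5.04e-07 by limma). All SP values lay within a narrow range far above PBS. Csf3, the growth factor that drives granulocyte production, was at background on all PBS arrays and at least 14.7-fold higher in SP (9.28 ± 0.85, adjusted p = 3.45e-05), and Arg1, which breaks down arginine, was at least 16.1-fold higher (9.42 ± 1.10, adjusted p = 0.00014). Ptgs2, Hp and Lcn2 were the 3 targets without a call, with differences of 0.17, -0.23 and 0.22.

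Of 10 genes of secondary and tertiary granules, a class that includes targets of C/EBPε, 5 were called (50%, against 44.1% of all rows). Chil3, a chitinase-like lectin, rose (1.95-fold, from 11.03 ± 0.49 to 11.99 ± 0.39, adjusted p = 0.0216 by limma), and 4 fell (Mmp8, Mmp9, Anxa1 and Pglyrp1), with a median of -0.66. Mmp8 and Mmp9 are also among the neutrophil markers, so their falls are counted in both lists. Mmp9, the gelatinase of tertiary granules, fell 1.5-fold from 12.86 ± 0.12 to 12.27 ± 0.36 (adjusted p = 0.0238). The calls of Chil3 and Mmp9 were each lost under 6 of 17 alternatives. That of Chil3 was lost among others without PBS replicate 3 or 4 (adjusted p up to 0.052), and that of Mmp9 among others without PBS replicate 3 or 4 or SP replicate 1 or 2 (up to 0.0657) and with the arrays centred on their medians (-0.31, 0.167). SP replicate 3 was high for several of these genes. Camp read 10.94 on that array and 7.60 to 8.17 on the other SP arrays, and without it 8 of the 10 genes were called, against 5 with it. The count was 0 without PBS replicate 3 or 4, 1 without SP replicate 1 or 2, 2 without PBS replicate 1, and from 2 to 9 over the alternatives that kept all arrays. Lcn2, the brightest of the list without a call, differed by 0.22 (adjusted p = 0.0505). The 6 genes of primary granules, made at the promyelocyte stage, lay at background on all arrays of both groups, and although 3 of them (Mpo, Elane and Ms4a3) passed the test with differences of 0.47, 0.20 and 0.39, no fold is given for them.

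**Figure D2:**
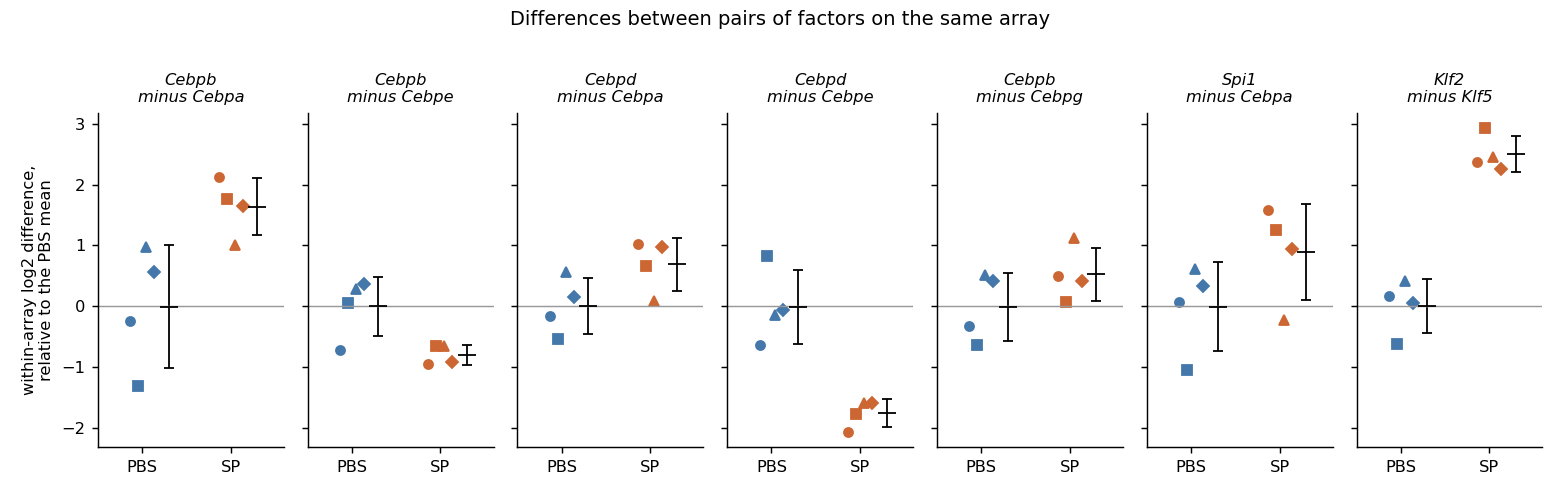
Difference between the log2 values of 2 factors on the same array, shown relative to the mean of the 4 PBS arrays (blue) for 7 pairs, with the SP arrays in orange, marker shapes for the replicate number as in the plot by array (circle 1, square 2, triangle 3, diamond 4) and bars for the mean ± SD (n = 4). The groups separate for Cebpb minus Cebpa, Cebpd minus Cebpe and Klf2 minus Klf5, and overlap for the other 4 pairs.

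Whether the factors moved by unequal amounts was asked with differences taken within an array, which stay the same when 1 amount is added to all values of an array. For 7 pairs, an exact permutation test (two-sided) went through the 70 ways to divide the arrays into groups of 4, and its smallest possible p is 0.0286. Cebpb minus Cebpa was 2.03, 0.96, 3.24 and 2.83 in PBS and 4.4, 4.04, 3.28 and 3.91 in SP. The lowest SP array lay just above the highest PBS array, and the difference of 1.64 gave the smallest p (0.0286, adjusted over the 7 pairs 0.0667). Without PBS replicate 2, or any 1 of the SP arrays, its exact p was 0.0571. Cebpd minus Cebpe was 2.34 to 3.8 in PBS and 0.92 to 1.39 in SP (difference -1.75, exact p = 0.0286, adjusted 0.0667), without overlap between groups. Klf2 minus Klf5 was -0.51 to 0.53 in PBS and 2.37 to 3.04 in SP, a difference of 2.50 with the same exact p values. Cebpb minus Cebpe (-0.79), Cebpd minus Cebpa (0.69), Spi1 minus Cebpa (0.89) and Cebpb minus Cebpg (0.53) overlapped between groups (exact p of 0.0857, 0.0857, 0.143 and 0.257). No pair passed after adjustment, but 1 pair by itself could not have passed, since even a p of 0.0286 is too large over 7 pairs. This outcome therefore does not show equal change.

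Spi1 (NM_011355), the gene of PU.1, was not called. Its values were 12.32, 11.75, 12.66 and 12.68 in PBS and 12.71, 12.71, 12.43 and 12.57 in SP. The groups overlapped, and PBS replicate 2 was the lowest of all arrays. The difference was 0.25 (95% interval -0.22 to 0.72, adjusted p = 0.318 by limma) and 0.05 without PBS replicate 2. It reached the threshold only with the arrays centred on their medians (0.53, adjusted p = 0.05).

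Relatives of PU.1 and factors of the monocyte line moved in both directions, and 10 of 11 were called, 7 higher and 3 lower, with a median of 1.25. Spic, an ETS factor close to PU.1 and known from red pulp macrophages, rose 5.91-fold (5.53 ± 0.24 to 8.09 ± 0.68, adjusted p = 0.000338 by limma). Zeb2, a zinc finger repressor of myeloid and other lineages, had 9.83, 9.28, 9.68 and 9.80 in PBS and 11.95, 11.79, 11.99 and 11.69 in SP. The groups were far apart for their spread, with a 4.62-fold rise (adjusted p = 1.38e-05). Egr2, an immediate early factor that works against the neutrophil program, rose 4.07-fold, and Irf8, Maf and Egr1 rose by 1.25, 1.6 and 0.66 log2 units. The 3 that fell were Spib (-0.91), Irf4 (at least 1.58-fold, at background in SP, adjusted p = 0.00156) and Klf4 (-0.65). Nr4a1 was not called (0.04, adjusted p = 0.914), and its sign turned under 6 alternatives.

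Of 11 known targets of PU.1, 7 rose and none fell (median 0.73). Fcgr1, the high-affinity receptor for IgG, read 6.97, 6.15, 6.49 and 6.67 in PBS and 11.73, 11.51, 11.46 and 11.70 in SP, a 32.6-fold rise (adjusted p = 9.36e-07 by limma). No other target in the list moved by a comparable amount. The endotoxin receptor Tlr4 rose 2.84-fold, and among the subunits of the NADPH oxidase Ncf4, Ncf1 and Cybb rose by 0.95, 0.77 and 0.66 log2 units. Btk rose by 0.91 and Itgam by 0.32. Csf3r, the receptor for the growth factor encoded by Csf3 and also one of the neutrophil markers, was bright and not called (12.97 ± 0.20 and 12.81 ± 0.12, adjusted p = 0.255). Its sign turned with the scaling. The count of called targets lay between 4 (without SP replicate 1) and 8 (without PBS replicate 3) when single arrays were left out.

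Markers of monocytes and interstitial macrophages moved with these 2 lists. Of 8 markers, 4 rose, Ccr2, F13a1 and Ms4a7 among them, none fell, and their mean level was 7.97 to 8.74 in PBS and 8.18 to 9.60 in SP, lowest among SP arrays in replicate 3. The complement genes C1qa, C1qb and C1qc, which mark interstitial macrophages, differed by 0.02, 0.13 and -0.30 without a call. The part of these cells in the results on Spi1, Runx1 and the PU.1 lists was not tested. In such samples fewer cells of a type and less RNA per cell cannot be told apart.

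Gfi1 (NM_001267621), with 1 C/EBP match in the upstream window shown and none in its other window, was called higher in SP. It read 5.03, 5.03, 4.82 and 4.86 on the PBS arrays and 7.60, 7.90, 6.67 and 6.46 on the SP arrays. All PBS values lay below the background level of their arrays (5.31 to 5.49) and all SP values above theirs (5.66 to 6.04), with replicates 1 and 2 higher than replicates 3 and 4 in SP. In SP, the mean levels of T cell markers (6.32, 6.57, 5.59 and 5.50) and B cell markers (6.82, 7.21, 5.92 and 6.05) were split likewise. That of endothelial markers was not (9.30, 9.53, 8.65 and 9.76), and B cell markers were lower in SP than in PBS. The part of lymphocytes in the result on Gfi1 was not tested. Because PBS gave no level above background, SP is stated as at least 3.38-fold higher. The fitted difference was 2.22 (95% interval 1.52 to 2.92, adjusted p = 0.000654 by limma), and between 1.98 and 2.56 over the alternatives that could be run. Gfi1b, its close relative in the blood system, also rose, from 5.61 ± 0.23 to 6.71 ± 0.13 (2.13-fold, adjusted p = 0.000282).

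Genes that Gfi1 is known to repress did not move in 1 direction. Of 9, 5 rose and 2 fell (median 0.66). Csf1, the growth factor of macrophages, rose 8.01-fold (8.92 ± 0.45 to 11.93 ± 0.30, adjusted p = 4.14e-05 by limma), Egr2 4.07-fold and Id2, an inhibitor of basic helix-loop-helix factors, 3.07-fold (11.23 to 11.50 on the PBS arrays and 12.91 to 13.20 on the SP arrays). Egr1 rose by 0.66, and Hoxa9 passed the test at background in both groups. Meis1, one of those that fell, did so by 4.23-fold. Cdkn1a, a cell cycle inhibitor, differed by 0.10 (adjusted p = 0.583) with a sign that turned under 3 alternatives, and Csf1r by 0.73 (0.0547).

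Among 12 further factors of granulocyte maturation, 5 rose (Id2, Gfi1b, Rxra, Elf1 and Id1), Satb1 fell and 6 were not called, with a median of 0.31. Rxra, a partner of the retinoic acid receptor, rose 2.03-fold from 8.74 ± 0.16 to 9.76 ± 0.24 (adjusted p = 0.000555 by limma). Rara, that receptor, differed by -0.26 (0.209), Lef1 by -0.19, Bcl6 by 0.02 and Stat3 by 0.15 without a call. Ets2 was the brightest without a call (0.46, adjusted p = 0.0558).

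Over the 8 arrays, the named genes with the pattern most like that of Gfi1 were Cipc (Pearson r = 0.9954), Gm12185 (0.9954) and Gabpa (0.9943). For Klf5 they were Cbx6 (0.9958), Med16 (0.9958) and Sh2d4a (0.9949). These values describe likeness over 8 points that fall into 2 groups, and they are not rare: 583 of 19835 genes reached 0.95 with Gfi1 and 538 with Klf5.

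**Figure D3:**
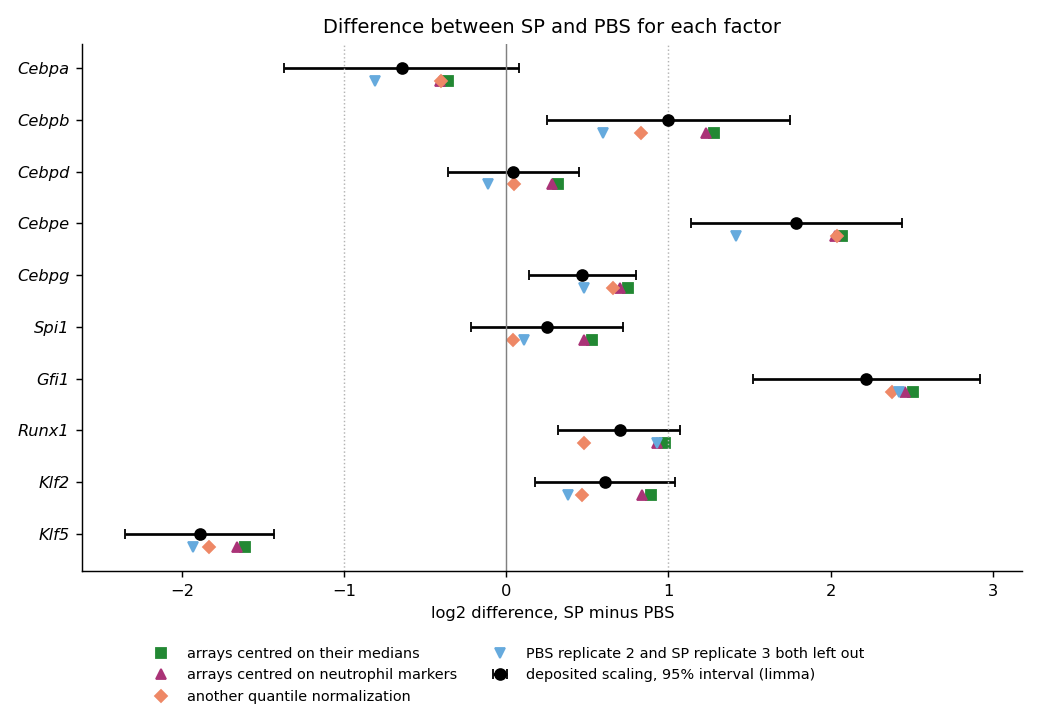
Log2 difference between SP and PBS (SP minus PBS) for the 10 factors, with the deposited scaling and its 95% interval by limma in black (n = 4 arrays per group) and, below each, the difference under 3 other scalings and without PBS replicate 2 and SP replicate 3; dotted lines mark 2-fold. Gfi1, Cebpe and Klf5 lie past 2-fold under all of them, Cebpa and Spi1 keep their sign with intervals that include 0, and Cebpd lies near 0.

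Runx1 (NM_001111023), a core factor of blood formation, read 10.73, 11.21, 10.54 and 10.82 in PBS and 11.63, 11.75, 11.22 and 11.50 in SP. The groups nearly touched, since PBS replicate 2 and SP replicate 3 differed by the second decimal alone. The mean rose 1.62-fold from 10.83 ± 0.28 to 11.53 ± 0.23 (SD, n = 4, log2 difference 0.70, standard error 0.16, adjusted p = 0.00954 by limma). The call was lost only after another quantile normalization (0.48, adjusted p = 0.0925), and the difference was 0.60 to 0.83 without single arrays.

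Partners of Runx1 and factors of blood progenitors moved both ways. Of 15, 4 rose (Runx3, Lmo2, Etv6 and, at background in both groups, Hoxa9), 5 fell and 6 were not called, with a median of -0.05 whose sign turned with the scaling. The 5 that fell were Meis1, Cbfa2t3, Myb, Gata2 and Erg. Meis1, a cofactor of HOX proteins in progenitors and endothelium, fell 4.23-fold (8.66 ± 0.38 to 6.58 ± 0.67, adjusted p = 0.00147 by limma). Cbfa2t3, a corepressor, fell 3.01-fold (7.97 ± 0.45 to 6.38 ± 0.48), and Myb, which keeps progenitors dividing, 2.70-fold (8.62 ± 0.33 to 7.19 ± 0.28, adjusted p = 0.000566). Gata2 and Erg differed by -1.06 and -0.88. Runx3 rose by 0.96 and Lmo2 by 0.89, while Cbfb, the partner subunit of all RUNX proteins, differed by 0.26 without a call (0.0578) and Fli1 by 0.15 (0.609).

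Endothelial markers fell beside Meis1, Gata2 and Erg, which endothelium also uses. Of 11 endothelial markers, 8 fell and none rose. Their mean level was 10.07 to 11.04 in PBS and 8.65 to 9.76 in SP, with a median difference of -1.29. Calcrl, the brightest, went from 12.30 ± 0.43 to 10.67 ± 0.49 (adjusted p = 0.00216 by limma), while Vwf and Pecam1 were not called (0.05 and -0.35). The part of endothelial cells in these results was not tested.

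The Krüppel-like factors Klf2 and Klf5 moved in opposite directions. Klf5 (NM_009769) read 9.85, 10.19, 9.97 and 10.18 in PBS and 8.01, 7.64, 8.41 and 8.56 in SP. The PBS values lay close together and far above all SP values. The mean fell 3.71-fold from 10.05 ± 0.17 to 8.16 ± 0.42 (SD, n = 4, log2 difference -1.89, 95% interval -2.35 to -1.43, adjusted p = 0.000168 by limma), and the difference lay between -2.04 and -1.61 over all alternatives.

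Epithelial markers fell together with Klf5. All 9 markers of ciliated cells and all 7 of club cells with a row were called lower, 8 of 10 of alveolar type 2 cells and 4 of 6 of alveolar type 1 cells, and none of these 4 lists held a marker called higher. The mean level of ciliated markers was 9.43 to 10.22 in PBS and 6.52 to 7.32 in SP, and that of club cell markers 12.43 to 13.19 and 10 to 11.36. Tppp3 of ciliated cells fell from 12.00 ± 0.18 to 9.75 ± 0.39, and Sftpc, a surfactant protein of alveolar type 2 cells, from 13.33 ± 0.08 to 12.39 ± 0.34 (adjusted p = 5.94e-05 and 0.00206 by limma). No marker of these 4 lists lay at background in both groups. Klf5 and the ciliated, club and alveolar lists were all highest among PBS arrays in replicate 2. Klf5 was lowest in PBS replicate 1, and these lists in PBS replicate 3. In SP, Klf5 and the club and alveolar lists were highest in replicate 4, and the ciliated list in replicate 2. Klf5 was lowest in SP replicate 2, whereas the ciliated, club and alveolar lists were lowest in SP replicate 3. Centring each array on its neutrophil markers moves all values of an array by 1 amount, so it cannot separate cell types. Klf5 was still called under it (-1.66, adjusted p = 0.000183 by limma). The median difference there was -2.64 for ciliated and -2.13 for club cell markers. The part of epithelial cells in the result on Klf5, and that of alveolar type 2 cells and alveolar macrophages (5 of 8 markers lower, none higher, mean level 8.07 to 8.71 in PBS and 6.57 to 7.48 in SP) in that on Cebpa, was not tested.

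**Figure D4:**
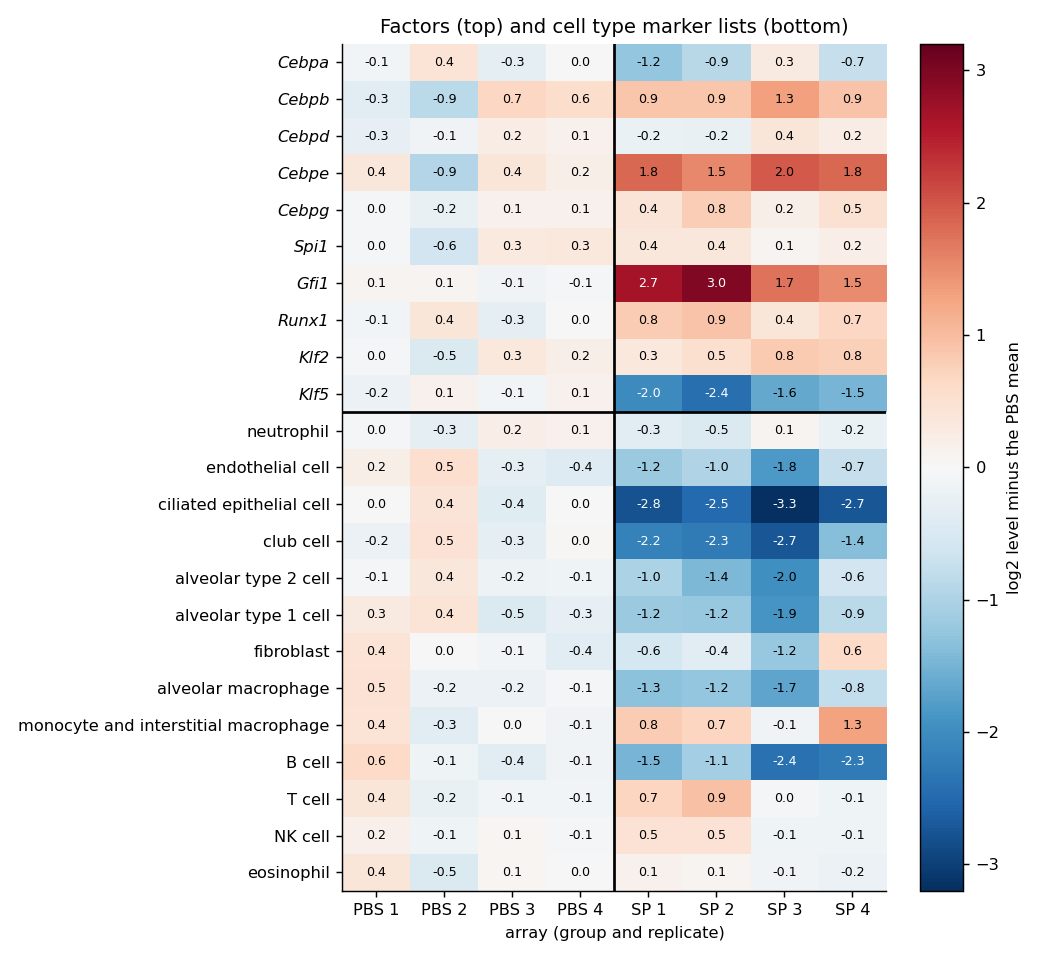
Log2 level minus the mean of the 4 PBS arrays for the 10 factors (upper rows) and for the mean of each of 13 cell type marker lists (lower rows) on each of the 8 arrays; red is higher and blue lower than PBS, on a scale in log2 units. Klf5 is blue on all SP arrays, as are the endothelial, epithelial, alveolar macrophage and B cell lists, while Gfi1 and Cebpe are red on all SP arrays and the neutrophil list changes little.

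Klf2 (NM_008452), which keeps T cells and endothelium quiescent and restrains myeloid activation, had 10.12, 9.69, 10.50 and 10.34 in PBS and 10.49, 10.68, 10.99 and 10.93 in SP. The lowest SP and the highest PBS array overlapped narrowly. The mean rose 1.53-fold (10.16 ± 0.35 to 10.77 ± 0.23, log2 difference 0.61, standard error 0.19, adjusted p = 0.0305 by limma). The call was lost without PBS replicate 1 or 2, or SP replicate 2, 3 or 4 (adjusted p of 0.0507 to 0.0722), and without both PBS replicate 2 and SP replicate 3 the difference was 0.38 (0.0762). B cell markers fell (6 of 6, mean level 7.94 to 8.91 in PBS and 5.92 to 7.21 in SP). Of 6 T cell markers, Cd3d alone was called (mean level of the list 5.40 to 6.02 in PBS and 5.50 to 6.57 in SP). Cd3d was higher in SP by at least 1.23-fold, but it lay at background on all 4 PBS arrays and on 3 SP arrays. The part of lymphocytes and endothelial cells in the result on Klf2 was not tested.

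Of 7 known targets of Klf2, 3 fell, Itgb7 rose by 1.12 and 3 were not called (median -0.17, with a sign that turned with the scaling). Tek, the angiopoietin receptor of endothelium, fell 4.05-fold (adjusted p = 0.00304 by limma) and Thbd, thrombomodulin, 4.04-fold. Cdkn1b, a cell cycle inhibitor of many cell types, fell 2.38-fold. Tek is itself one of the endothelial markers.

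Of 14 other members of the Krüppel-like family with a row, 4 rose and 4 fell, 4 lay at background in both groups, and the median of 0.03 turned its sign after another quantile normalization (-0.09). Klf10, which is induced by TGF-β, had 9.32, 9.15, 9.09 and 9.20 in PBS and 11.10, 11.02, 11.24 and 10.74 in SP, a 3.56-fold rise (adjusted p = 1.38e-05 by limma). Values within both groups were tight and widely separated. Klf12, a repressor, was at background on all SP arrays and at least 4.17-fold lower there (7.85 ± 0.59 in PBS, adjusted p = 0.000143), and Klf15, known from metabolic control, was at least 1.6-fold lower (0.000435). Klf3 and Klf4 fell by 0.70 and 0.65 on the log2 scale, Klf13 and Klf11 rose by 0.92 and 0.47, and Klf17 passed the test at background. Klf7 was the brightest without a call (0.10, adjusted p = 0.494), with a sign that turned under 4 alternatives.

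**Figure D5:**
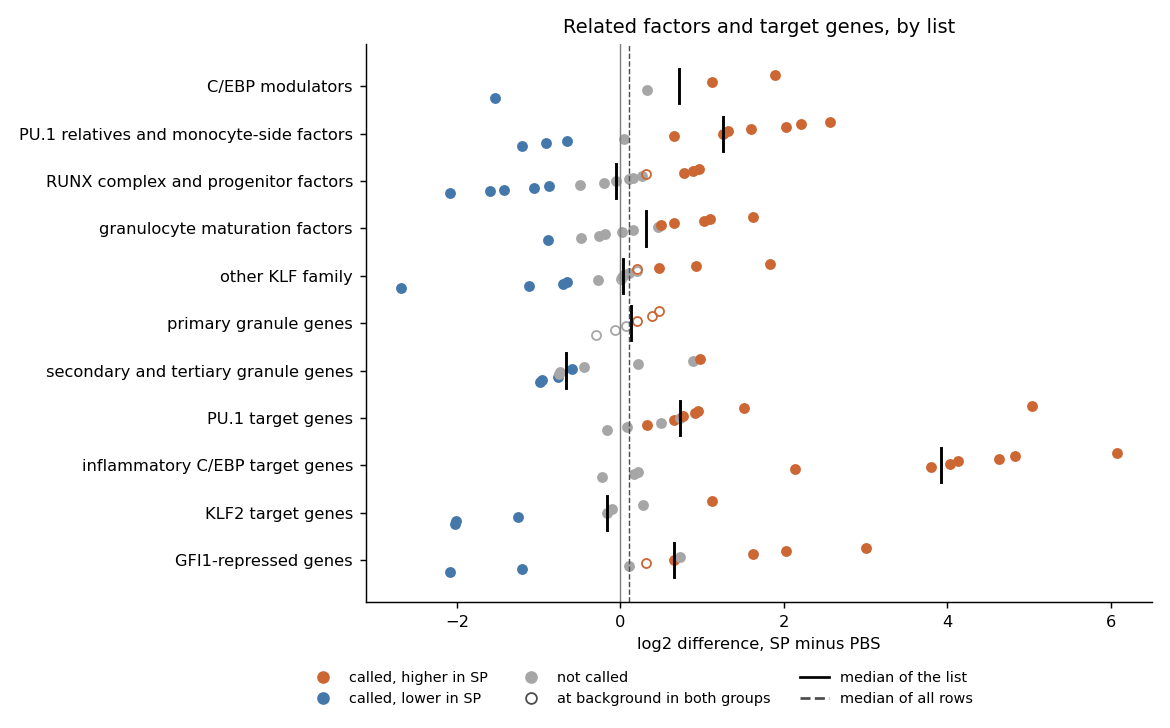
Log2 difference between SP and PBS (SP minus PBS, 4 arrays each) of the genes in 11 lists of related factors and targets, coloured by the call at an adjusted p of 0.05 (limma) and drawn open where both groups lay at background; the black line is the median of the list and the dashed line that of all rows (0.10). The inflammatory C/EBP targets lie furthest to the right, the secondary and tertiary granule genes mostly to the left, and the primary granule genes are all open.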

How the data were processed

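RNA of 8 lung neutrophil samples (4 PBS, 4 SP, grouped by sample title) was hybridised to Affymetrix Mouse Gene 1.1 ST arrays. The authors processed the signals by robust multi-array averaging (subtracting background, adjusting for probe sequence and GC content, normalizing quantiles and summarising probes by median polish) with custom probeset mappings, so the deposited values are log2 expression, not relative to a control and relative within an array. Submitters' processing notes name Affymetrix Expression Console, RMA and Partek. Such values cannot show a change in total RNA per cell, and precision is limited by how many arrays there are. All value columns were used. The 24625 rows carry no genome build, and 19915 (80.9%) received a symbol from a RefSeq gene table of GRCm38.p6. Where several rows carried a symbol, the row with the highest mean stood for it.

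SP and PBS were compared with limma 3.58.1 in R 4.3.3 (lmFit, eBayes, no covariate, two-sided), adjusted over all rows, with thresholds of 0.05 and, for 2-fold, 1 log2 unit. Pairs of factors were compared by exact permutation of the 8 arrays. The fits were tested on simulated data. Background was the 95th percentile of 1080 olfactory receptor rows on each array, and a gene at or below it on all arrays of 1 group has only a bound there. A bound sets the brighter mean against the dimmer group's mean of the higher of background and measured value on each array. Replicate numbers were not used as pairs, since the labels do not say whether equal numbers mark a shared day. The correlations of same-numbered deviations were 0.0156, 0.0304, 0.35 and -0.274, which cannot settle it.

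The factors, lists and rules were chosen with earlier results of these data known. Genes named were the 10 factors, of each list the 3 largest called differences without overlap between groups and the brightest gene without a call, the brightest marker of a cell type, and the 3 genes most like Gfi1 and Klf5. Some genes of the lists are counted but not reported here. Other genes complete a count and were chosen after their values were seen. Alternatives were array weights, an intensity trend with a robust prior, the replicate number as a block, the methods' t-test (one-way ANOVA of a pair of groups), arrays centred on medians or on neutrophil markers, another quantile normalization, leaving out dim rows (mean below the median of rows) and leaving out each sample. Leaving out PBS replicate 2 and SP replicate 3 together was added after seeing the data. Promoter windows came from RefSeq, without the 50 bases after the start. Figures used Python 3.11.15.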

Additional observations from a re-analysis of the deposited data

Results flagged for a closer look

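Single samples were compared with the other 3 of their group by Dixon's ratio of the gap to the range, against its 95% critical value. Of 112 groups of 4 values tested, from 49 genes and 7 pairs of factors, 7 passed, and chance passes about 1 in 20 groups. All 7 were values of PBS replicate 2 or SP replicate 3. Among the factors, Cebpe read 5.30 in PBS replicate 2 against 6.43 to 6.61 on the other PBS arrays (ratio 0.86), and Cebpb read 11.94 in SP replicate 3 against 11.50 to 11.54 (0.907). Csf1 was low on both arrays, at 8.25 against 9.14 to 9.17 in PBS replicate 2 (0.96) and at 11.48 against 12.06 to 12.09 in SP replicate 3 (0.953). Egr2 was low in PBS replicate 2, at 6.90 against 8.22 to 8.32 (0.925). In SP replicate 3, Id2 read 13.20 against 12.91 to 12.95 (0.859), and Prss57, which lay at background throughout, 4.92 against 4.64 to 4.67 (0.91).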

How the results depend on the processing

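Cebpe, Gfi1 and Klf5 kept their direction and call under every alternative that could be run (with dim rows left out, Gfi1 was among the rows removed). The count of called factors, 7, was 4 after another quantile normalization (Cebpe, Cebpg, Gfi1 and Klf5) and 4 with the methods' t-test, and 4 to 7 without single samples (4 without PBS replicate 1 or 2 or SP replicate 2 or 4). Of all 24625 rows, 10245 were called after another quantile normalization, 10244 with the methods' t-test and 8200 to 10907 without single samples. The count as deposited was 10860. Other values past or short of the threshold follow, and the cause was not tested. With array weights Cebpa was -0.91 (adjusted p = 0.00374), Cebpb 0.65 (0.0736), Cebpd -0.17, Klf2 0.36 (0.0631), and 9 secondary and tertiary granule genes were called. Without PBS replicate 2 and SP replicate 3 together Cebpa was -0.81 (0.00534), Cebpb 0.60 (0.0999), Cebpd -0.11 and Klf2 0.38 (0.0762). After another quantile normalization Cebpb was 0.83 (0.0674), Runx1 0.48 (0.0925), Klf2 0.47 (0.0648), Cebpb minus Cebpa 1.23 (exact p = 0.0857) and Cebpb minus Cebpe -1.22 (exact p = 0.0286). With the methods' t-test Cebpb stayed at 1.0 (0.0781), Cebpg at 0.47 (0.0525) and Klf2 at 0.61 (0.0607), with 1 primary and 2 secondary and tertiary granule genes called. Centring on medians gave 18255 called rows, Spi1 at 0.53 (0.05) and 2 secondary and tertiary granule genes, and centring on neutrophil markers 5 other Krüppel-like genes. Leaving out dim rows left 0 primary granule genes. Scaling also moved the direction of calls: 48.9% of called rows were higher in SP as deposited, 77.9% centred on medians (shift of all differences 0.28), 69.8% centred on neutrophil markers (0.23) and 47.2% after another quantile normalization (-0.05). The replicate number as a block, which is not known to pair these samples, gave 9842 rows and 6 factors, with Cebpg at 0.47 (0.0768).

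Without single samples, differences ranged from -0.95 to -0.44 for Cebpa, 0.71 to 1.22 for Cebpb, -0.07 to 0.14 for Cebpd, 0.36 to 0.56 for Cebpg, 0.05 to 0.36 for Spi1, 0.60 to 0.83 for Runx1 and 0.45 to 0.72 for Klf2. Called rows ranged from 8200 to 10907, primary granule genes from 0 to 3, secondary and tertiary granule genes from 0 to 8 and PU.1 targets from 4 to 8. Cebpb minus Cebpa ranged from 1.21 to 1.97 and Cebpb minus Cebpe from -1.03 to -0.67. Among genes that were not called, signs turned for Cdkn1a (-0.03 without both samples, -0.13 by quantiles, -0.10 with weights), Nr4a1 (-0.35, -0.19 and -0.33, and -0.25, -0.06 and -0.05 without PBS replicate 2, SP replicate 3 or SP replicate 4, of a range up to 0.19), Klf7 (-0.03, -0.11 and -0.05, and -0.00 without SP replicate 3, up to 0.16), Fli1 (-0.05 without PBS replicate 2, up to 0.31 without SP replicate 3) and Csf3r (0.07 centred on neutrophil markers, 0.11 on medians). Depth has no counterpart here, and genes at background have bounds only.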

Other observations

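Granule genes and markers of other lung cells set SP replicate 3 apart, with no group to compare it with. On that array Camp, the cathelicidin of secondary granules, read 10.94 against 7.60 to 8.17 on the other SP arrays, Ltf, lactoferrin, 12.10 against 9.69 to 10.22, and Ngp 13.34 against 10.62 to 12.25. The mean of the endothelial markers was 8.65 there and 9.30 to 9.76 on the other SP arrays, that of fibroblast markers 7.26 against 7.91 to 9.08, and that of alveolar macrophage markers 6.57 against 6.95 to 7.48. Of 7 fibroblast markers, Dcn and Bgn fell, none rose and 5 were not called. Markers of natural killer cells were near background (4 of 5 at background in both groups) and none was called. Of 5 eosinophil markers, Prg2 alone was called, at background in both groups, and Siglecf differed by -0.86 (adjusted p = 0.0841 by limma).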
